A study of Homo sapiens with 24 samples.

Results

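The 39 genes described here carry out or switch on DNA replication: they license origins, fire them, copy DNA at the fork, supply nucleotides, package the new chromatin or drive the step from G1 into S phase. All probes whose current gene symbol is one of the 39 were taken, 59 on the array, and 54 of them, for 38 genes, passed a filter that asked for a detection p below 0.05 on 4 or more of the 24 arrays. These 54 stood among 16655 detected probes that name a single gene, and 13 of the 38 genes had several. CCNE2, which encodes cyclin E2, was the exception, since its only probe was detected on 0 arrays. Expression was measured with Illumina bead arrays in the C4-2B line, prostate cancer cells derived from LNCaP that respond to androgen, and all samples come from this one line. All cells were kept for 3 days without phenol red in medium with 5% charcoal-stripped serum, which is poor in steroids. They were transfected with a non-specific siRNA (siNS), an siRNA against EP300, the gene of p300 (sip300), or an siRNA against CREBBP, the gene of CBP (siCBP). Each was sampled at 0 h and after 16 h of 10 nM dihydrotestosterone (DHT), a potent androgen, with 4 arrays in each of the 6 groups. The siRNA sequences, the time between transfection and harvest and a vehicle at 0 h are not given in the sources used here. A difference with DHT thus also holds whatever else those 16 h brought.

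Before S phase, the origin recognition complex with CDC6 and CDT1 loads the MCM2-7 helicase onto DNA, which licenses the origin. GINS, MCM10 and other firing factors then turn the loaded helicase into a moving one, and polymerases, the sliding clamp PCNA, its loader RFC and the nuclease FEN1 copy both strands. Many of these genes are transcribed as cells leave G1, when cyclin E with its kinase phosphorylates RB and frees E2F factors. The coactivators p300 and CBP are closely related acetyltransferases, and the series title asks whether they serve androgen-regulated expression alike.

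Promoter sequences are shown because E2F factors read short sites near the starts of many of these genes. The table of RefSeq promoters (GRCh38.p14) held 35 of the 39 genes, and MCM4, MCM5, GINS4 and CCNE2 were not among them. The 250 bases before each start were searched on both strands for 4 spellings of the E2F site, TTTCCCGC, TTTGGCGC, TTTCGCGC and TTTGCCGC, and for CCAAT. Matches of both strands may share bases and were counted separately. Of the 35 promoters 14 held an E2F spelling (40.0%), against 2.79% of all 35116 promoters of that length. CCAAT was found in 19 of the 35 (54.3%), against 32.0% of all. The sequences below run 5′ to 3′ along the gene, with E2F matches in capitals. The genes printed were picked by hand and not by a rule. CDT1 (chr16:88803539-88803788, plus strand), PCNA (chr20:5126623-5126872, minus strand), RFC3 (chr13:33817899-33818148, plus strand) and UHRF1 (chr19:4909251-4909500, plus strand) are genes that fell with sip300. E2F1 (chr20:33686386-33686635, minus strand) and CCNE1 (chr19:29811741-29811990, plus strand) are the G1/S genes that were not called.
CDT1: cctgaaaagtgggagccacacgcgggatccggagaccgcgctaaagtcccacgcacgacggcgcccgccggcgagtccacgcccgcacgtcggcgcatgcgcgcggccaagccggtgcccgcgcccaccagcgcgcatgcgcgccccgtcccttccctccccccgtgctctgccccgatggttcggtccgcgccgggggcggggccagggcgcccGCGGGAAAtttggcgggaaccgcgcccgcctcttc
PCNA: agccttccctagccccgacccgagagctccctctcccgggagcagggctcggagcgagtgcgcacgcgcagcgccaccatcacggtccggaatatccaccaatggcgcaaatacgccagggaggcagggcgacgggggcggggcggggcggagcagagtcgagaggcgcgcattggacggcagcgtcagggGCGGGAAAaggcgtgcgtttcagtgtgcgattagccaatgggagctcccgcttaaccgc
RFC3: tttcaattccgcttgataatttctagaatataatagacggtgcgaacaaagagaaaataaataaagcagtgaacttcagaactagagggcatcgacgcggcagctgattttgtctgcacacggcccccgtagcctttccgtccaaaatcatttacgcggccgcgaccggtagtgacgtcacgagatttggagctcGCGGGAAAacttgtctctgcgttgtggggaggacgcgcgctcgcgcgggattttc
UHRF1: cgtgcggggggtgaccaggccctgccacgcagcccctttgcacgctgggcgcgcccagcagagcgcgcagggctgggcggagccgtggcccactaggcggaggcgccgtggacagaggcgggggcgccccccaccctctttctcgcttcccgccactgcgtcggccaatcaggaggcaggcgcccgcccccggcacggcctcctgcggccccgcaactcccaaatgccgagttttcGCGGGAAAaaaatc
E2F1: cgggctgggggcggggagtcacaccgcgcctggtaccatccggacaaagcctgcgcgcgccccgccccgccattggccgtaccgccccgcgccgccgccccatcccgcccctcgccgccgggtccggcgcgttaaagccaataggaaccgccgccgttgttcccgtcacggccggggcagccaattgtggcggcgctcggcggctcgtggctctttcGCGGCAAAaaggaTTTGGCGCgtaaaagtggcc
CCNE1: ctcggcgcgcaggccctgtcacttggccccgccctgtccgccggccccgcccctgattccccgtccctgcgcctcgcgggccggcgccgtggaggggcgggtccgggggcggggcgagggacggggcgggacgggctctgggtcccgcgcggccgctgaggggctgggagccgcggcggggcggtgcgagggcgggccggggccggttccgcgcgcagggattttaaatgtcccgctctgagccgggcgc
In the first 4 of these the match starts 35, 59, 55 and 14 bases before the transcription start. E2F1, the gene of an E2F factor, held 2 matches, 33 and 20 bases before its start, and CCNE1 held none of these letters in its window. Of the 14 detected genes with an E2F spelling, 6 fell in sip300 with DHT, and of the 21 without one, 13 fell. The printed genes that fell all hold a match and so do not represent the genes that fell. A match of letters is not a measured binding site, and a window without these letters says nothing about E2F at that gene.

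Arrays detected 17663 to 19830 probes each. Luminal prostate markers were present on the arrays as labelled: of 8 that could be read, 7 were detected on all 24 arrays and KLK3 on 23. Of 5 basal markers none passed the detection filter (KRT5, KRT14, KRT15 and LAMB3 on 0 arrays, DST on 3). Some markers of other cell types did pass it. These were 2 of 6 stromal markers (COL1A1 on 23 arrays, ACTA2 on 12) and 3 of 6 leukocyte markers (CD68 and HLA-DRA on 24, CD14 on 19). Of 4 neuroendocrine markers 2 passed (ENO2 on 24 arrays, INSM1 on 11). Each siRNA lowered its target. EP300 fell in sip300 by 0.88 at 0 h and 1.19 at 16 h, to 54.3% and 43.9% of siNS, and CREBBP fell in siCBP by 1.68 and 1.74, to 31.1% and 29.9%. A dimmer CREBBP probe (ILMN_2293692) measured -0.40 and 0.20 in siCBP against siNS, neither called. The hormone response was present in all arms, with FKBP5 up by 2.70, 2.25 and 2.65 in siNS, sip300 and siCBP. Replicate numbers, which every group shares, tied the arrays together, so differences were fitted within replicate numbers in limma and are given as log2 differences ± SE over 4 arrays a group. A probe was called at a Benjamini-Hochberg adjusted p under 0.05 over all 16655 probes, and a gene is described by its brightest detected probe unless another is named. Levels of different probes are not comparable with each other.

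Replicate 2 was low without DHT in siNS and siCBP. Averaged over the 38 genes, siNS arrays without DHT measured 10.01, 9.33, 9.98 and 9.75 on the log2 signal scale in replicates 1 to 4, and siCBP arrays without DHT measured 9.88, 9.19, 9.86 and 9.60. Replicate 2 was thus the lowest in both groups, while in sip300 without DHT it was inside the range, at 9.19, 9.32, 9.57 and 9.28. With DHT the same averages were 9.76, 9.90, 9.99 and 9.76 in siNS, 9.06, 9.49, 9.30 and 9.17 in sip300 and 9.67, 9.61, 9.81 and 9.55 in siCBP. Dixon's rule for far arrays, given at the end, flagged none of these averages. The counts, the medians and the genes called without DHT are also given without replicate 2, an omission chosen from these same values.

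**Figure D1:**
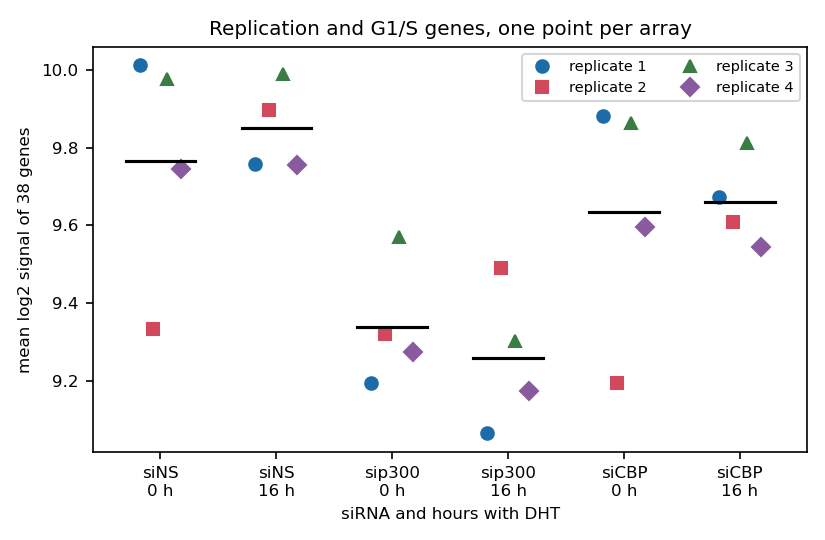
Mean log2 signal of the 38 detected genes (brightest probe each) on every array, by siRNA and hours with DHT, with lines for the group means. The sip300 groups average 9.34 and 9.26 against 9.77 and 9.85 in siNS, and replicate 2 without DHT is low in siNS and siCBP.

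Many of the replication genes were lower with the siRNA against EP300. Whether this siRNA acted through EP300 alone was not tested. Without DHT 21 of the 54 probes fell in sip300 against siNS and 0 rose, where 8.93% of all probes tested fell and 10.1% rose. With DHT 33 of 54 fell and 0 rose, where 10.4% of all probes fell and 12.2% rose. Counted as genes, 10 of 38 fell without DHT and 21 of 38 with it. The 21 include CDC6, whose probe passed the detection filter only through siNS and siCBP arrays. The median of the 54 differences was -0.49 without and -0.73 with DHT, while the median of all probes was 0.02 at both times. In bulk RNA, fewer cells in S phase and less of these RNAs per cell cannot be told apart.

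The median lay below 0 in all 4 replicate numbers and was closest to 0 in replicate 2. The median difference of the 54 probes was -0.93, -0.05, -0.49 and -0.54 in replicates 1 to 4 without DHT, and -0.85, -0.43, -0.77 and -0.79 with DHT. Lower in every replicate number were 26 of 54 probes without DHT (15.6% of all probes) and 42 with DHT (18.3% of all). The arrays of both groups did not overlap for 15 probes without DHT (5.64% of all probes were lower in this way) and for 34 with DHT (8.38% of all). Without replicate 2 the count without DHT was 36 probes and the median -0.68, and with DHT the count was 35. Leaving out replicate 1, 3 or 4 gave 9, 12 and 8 probes without DHT, and leaving out replicate 4 gave 17 with DHT. In the fit without the replicate block 13 and 28 probes were called. Shares of all probes called in these settings are not given here. These counts thus do not tell a change in the members from a change in calling over all probes. On either slide alone, with 2 arrays a group, the medians were -0.63 and -0.40 without DHT and -0.89 and -0.54 with DHT.

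**Figure D2:**
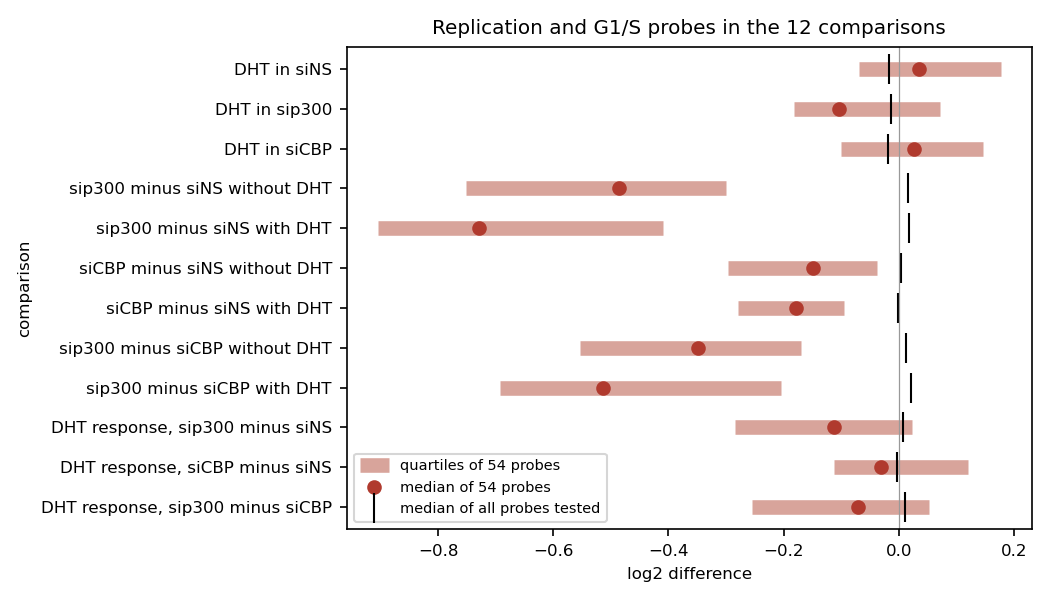
Median (points) and quartiles (bars) of the log2 differences of the 54 probes in each of the 12 comparisons, with the median of all probes tested as a black line. The sip300 comparisons lie to the left at -0.35 to -0.73, and the siCBP comparisons at -0.15 and -0.18.

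The same genes were low at both times. All 21 probes that fell without DHT also fell with DHT, 12 more fell with DHT, and 21 were called at neither time. Both sip300 means lay below the means of the other 4 groups for 31 of the 38 genes. Neither this count nor the overlap between the times was set against a share of all genes or probes tested. The 10 genes called at both times by their brightest probe had every detected probe called at both times. These were CDT1, ORC1, MCM10, GINS3, RFC3, RFC4, POLE2, FEN1, TK1 and CHAF1B. Both times have their own siNS and sip300 arrays, so they share no sample. In the fit without the replicate block CDT1, RFC3, POLE2 and TK1 passed at both times, while ORC1, MCM10, GINS3, RFC4, FEN1 and CHAF1B did not pass without DHT (limma, adjusted p = 0.0907, 0.0616, 0.0709, 0.0596, 0.0767 and 0.0867). With DHT the genes that lost their call in that fit were MCM2, ORC1, GINS4, RRM2 and CHAF1B (adjusted p = 0.170, 0.159, 0.0897, 0.109 and 0.0525).

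Leaving out replicate 2 raised the number of genes called without DHT from 10 to 23, all lower, and all 10 were among them. Replicate 2 was chosen for its low siNS values, so a larger count was built into this omission and is no support. Of the 10 genes only CDT1 and TK1 kept their call in each of the 12 settings that left out a replicate number or a single array. The changes in the rest of this paragraph are those without replicate 2, while the gene paragraphs after it use all replicate numbers. The 10 genes then fell by 1.17 for CDT1, 0.73 for ORC1, 1.33 for MCM10, 0.82 for GINS3, 1.02 for RFC3, 1.03 for RFC4, 0.95 for POLE2, 0.83 for FEN1, 1.11 for TK1 and 0.67 for CHAF1B on the log2 scale. RRM2 and UHRF1 were called as well, falling by 0.83 and 0.96, while PCNA, E2F1 and CCNE1 measured -0.42, -0.11 and 0.50 and were not called.

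**Figure D3:**
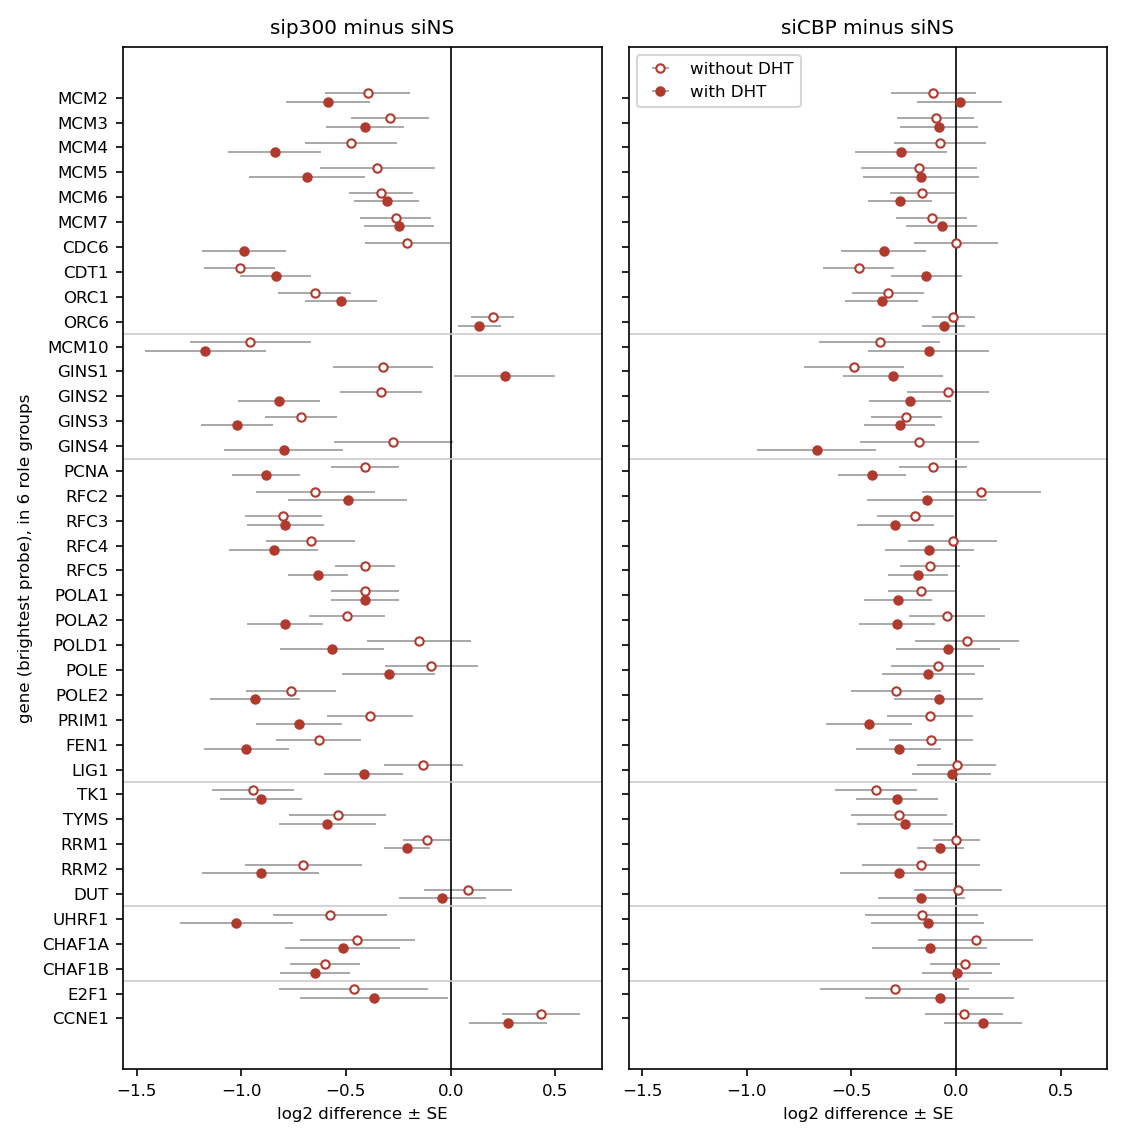
Log2 difference ± SE from the limma fit for each of the 38 genes, sip300 against siNS on the left and siCBP against siNS on the right, without DHT (open) and with DHT (filled). Grey lines part the role groups in the order licensing, origin firing, fork, nucleotide supply, chromatin and G1/S switch. Most sip300 points lie left of 0, with ORC6 and CCNE1 to the right at both times.

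Among the 10 licensing genes 2 fell without DHT and 5 with DHT. CDT1, the loader of the MCM helicase, measured 10.24, 9.79, 10.59 and 10.24 in siNS without DHT, 8.96, 9.28, 9.47 and 9.13 in sip300 and 9.80, 9.59, 10.15 and 9.47 in siCBP. With DHT it measured 9.65, 9.997, 10.28 and 9.79 in siNS, 8.77, 9.64, 9.40 and 8.57 in sip300 and 9.47, 9.91, 10.21 and 9.57 in siCBP. All sip300 arrays lay below all siNS arrays at both times, with DHT only narrowly, while single siCBP arrays reached into the sip300 range. CDT1 fell by 1.01 ± 0.169 (adjusted p = 0.000482) without DHT and 0.84 ± 0.169 (adjusted p = 0.00156) with DHT, to 49.7% and 56.0% of the siNS level. Its promoter is the first printed above.

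CDC6, the ATPase that brings CDT1 and the helicase to the origin, was near the detection limit and was detected on 8 arrays, none of them sip300. At 16 h the values were 5.75, 6.51, 6.67 and 6.10 in siNS (3 of 4 arrays detected), 5.03, 5.26, 5.30 and 5.51 in sip300 (0 detected) and 6.14, 5.95, 5.97 and 5.61 in siCBP (3 detected). The sip300 arrays were the low ones and did not overlap either group. CDC6 was at least 1.40-fold lower in sip300 than in siNS, a bound set by the lowest detected signals. Its call (adjusted p = 0.00173) is no independent support, since the probe passed the detection filter only through siNS and siCBP arrays. Without DHT it measured 5.63, 5.31, 5.86 and 5.53 in siNS and 5.34, 5.71, 5.31 and 5.15 in sip300, which overlapped and were not called (adjusted p = 0.531).

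ORC1, the largest subunit of the origin recognition complex, fell by 0.65 ± 0.173 (adjusted p = 0.0124) and 0.52 ± 0.173 (adjusted p = 0.0348), with neither call kept without the replicate block. MCM2 and MCM4, helicase subunits, fell with DHT by 0.59 ± 0.202 (adjusted p = 0.0423) and 0.84 ± 0.220 (adjusted p = 0.00918). The other helicase subunits had differences with DHT of -0.41 for MCM3, -0.69 for MCM5, -0.31 for MCM6 and -0.25 for MCM7, none called. ORC6, a smaller subunit of the recognition complex, measured 0.20 and 0.14 by its brightest probe.

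Some licensing genes gave different answers by probe. MCM7's brightest probe (ILMN_1663195) did not pass at either time, and a dimmer one (ILMN_1704702) fell by 1.65 ± 0.277 without DHT (adjusted p = 0.000487) and 1.21 ± 0.277 with DHT (adjusted p = 0.00378). A probe dimmer still (ILMN_1800654), detected on 8 of 24 arrays, measured -0.49 and -0.31 and was not called (adjusted p = 0.182 and 0.418). Without DHT the probe that fell measured 8.73, 8.96, 9.61 and 8.95 in siNS and 7.08, 8.36, 7.09 and 7.12 in sip300, all 4 lower. The dimmer ORC6 probe (ILMN_1731070) fell with DHT by 1.15 ± 0.317 (adjusted p = 0.0131), from 8.72, 9.11, 8.34 and 8.68 in siNS to 7.58, 7.95, 7.25 and 7.49 in sip300, with no overlap. Which transcripts each probe reads is not in the tables used here.

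**Figure D4:**
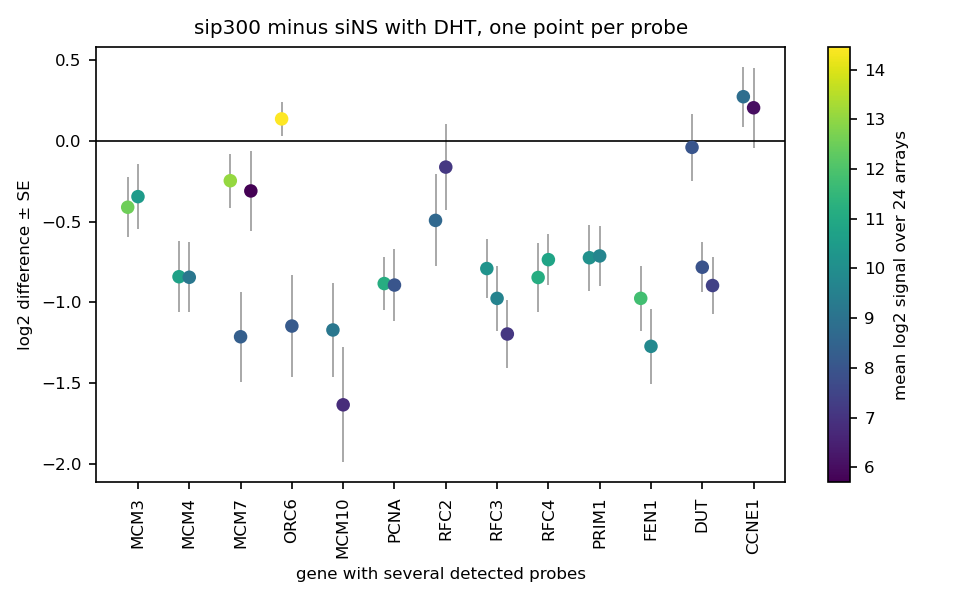
Log2 difference ± SE of sip300 against siNS with DHT for each detected probe of the 13 genes with several, coloured by the probe's mean log2 signal over 24 arrays. Probes of RFC4, PRIM1, PCNA and MCM4 lie close together, while those of MCM7, ORC6 and DUT do not.

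Of the 5 origin-firing genes 2 fell without DHT and 4 with DHT. MCM10, which helps start the helicase, measured 9.84, 8.68, 9.96 and 9.56 in siNS without DHT and 7.88, 8.84, 8.98 and 8.51 in sip300. Replicate 2 ran the other way there, and the groups overlapped. Under hormone it measured 9.24, 10.04, 10.01 and 9.61 in siNS, 7.99, 9.08, 8.77 and 8.38 in sip300 and 9.08, 9.94, 9.88 and 9.48 in siCBP, and sip300 overlapped neither. MCM10 fell against siNS by 0.96 ± 0.289 (adjusted p = 0.0251) and 1.17 ± 0.289 (adjusted p = 0.00639), the former not called without the replicate block (adjusted p = 0.0616). Its dimmer probe (ILMN_2413899) fell by 1.46 ± 0.357 and 1.64 ± 0.357 (adjusted p = 0.00721 and 0.00276).

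GINS3, a subunit of the GINS ring that joins the active helicase, measured 9.27, 8.51, 9.06 and 9.09 in siNS without DHT, 8.27, 8.10, 8.41 and 8.30 in sip300 and 9.08, 8.03, 9.41 and 8.46 in siCBP. With DHT the values were 9.68, 9.19, 9.70 and 9.07, 8.53, 8.43, 8.41 and 8.18 and 9.39, 8.64, 9.49 and 9.04 in the same order. The sip300 arrays lay below all siNS arrays at both times, and replicate 2 of siCBP without DHT was lower still. GINS3 fell by 0.71 ± 0.170 (adjusted p = 0.00633) and 1.02 ± 0.170 (adjusted p = 0.000337), of which the fit without the replicate block lost the former (adjusted p = 0.0709). The other GINS subunits differed: GINS2 and GINS4 fell with DHT by 0.82 ± 0.197 (adjusted p = 0.00537) and 0.80 ± 0.285 (adjusted p = 0.0496), the latter lost without the replicate block, whereas GINS1, detected on 12 arrays, measured -0.32 without and 0.26 with DHT, neither called.

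At the fork 4 of 13 genes fell without DHT and 8 with DHT. RFC3, a subunit of the clamp loader, measured 10.94, 9.84, 10.47 and 10.42 in siNS without DHT, 9.71, 9.71, 9.47 and 9.58 in sip300 and 10.44, 9.82, 10.22 and 10.41 in siCBP. With DHT its values were 10.53, 10.65, 10.87 and 10.61, 9.68, 10.15, 9.89 and 9.77 and 10.19, 10.42, 10.55 and 10.33. The sip300 arrays were the low ones and overlapped neither group at either time. RFC3 fell by 0.80 ± 0.184 (adjusted p = 0.00507) and 0.79 ± 0.184 (adjusted p = 0.00429), and its 2 dimmer probes fell by 1.19 and 1.11 at 0 h and 0.98 and 1.20 at 16 h.

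PCNA, the sliding clamp, measured 11.62, 11.38, 11.24 and 11.24 in siNS without DHT, 11.02, 11.01, 10.81 and 11.004 in sip300 and 11.52, 10.85, 11.65 and 11.03 in siCBP. At 16 h of DHT it measured 11.51, 11.56, 11.83 and 11.33, 10.51, 10.97, 10.64 and 10.59 and 11.36, 10.92, 11.38 and 10.98. All sip300 arrays lay below all siNS arrays at both times, and siCBP arrays reached into the sip300 range. The brightest probe was called with DHT, where it fell by 0.88 ± 0.162 (adjusted p = 0.000714), and not without it, at -0.41 (adjusted p = 0.0848). A second probe (ILMN_1706958) fell at both times, by 0.79 ± 0.224 and 0.89 ± 0.224 (adjusted p = 0.0182 and 0.00703, the former 0.0697 without the replicate block).

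Further fork genes fell at both times. RFC4, another clamp-loader subunit, fell by 0.67 ± 0.212 (adjusted p = 0.0322) and 0.85 ± 0.212 (adjusted p = 0.00707). POLE2, a subunit of polymerase epsilon, which copies the leading strand, fell by 0.76 ± 0.214 (adjusted p = 0.0172) and 0.94 ± 0.214 (adjusted p = 0.00382). FEN1, the flap nuclease that trims Okazaki fragments, fell by 0.63 ± 0.203 (adjusted p = 0.0345) and 0.98 ± 0.203 (adjusted p = 0.00191). The calls of RFC4 and FEN1 without DHT were lost without the replicate block. Further genes were called with DHT and not without it. RFC5, a clamp-loader subunit, fell by 0.63 ± 0.144 (adjusted p = 0.00372), POLA2, of polymerase alpha, by 0.79 ± 0.182 (adjusted p = 0.00382) and PRIM1, the primase, by 0.72 ± 0.205 (adjusted p = 0.0152). The remaining fork genes RFC2, POLA1, POLD1, POLE and LIG1, the ligase that seals the fragments, had differences with DHT from -0.57 to -0.30, and none was called.

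In the nucleotide supply group 1 of 5 genes fell without DHT and 2 with DHT. TK1, the thymidine kinase of S phase, measured 11.69, 10.80, 11.62 and 11.37 in siNS without DHT, 10.20, 10.36, 10.68 and 10.45 in sip300 and 11.40, 10.42, 11.35 and 10.77 in siCBP. With DHT it measured 11.36, 10.93, 11.09 and 11.22, 9.84, 10.53, 10.22 and 10.39 and 10.95, 10.62, 11.07 and 10.83. Every sip300 array was below every siNS array at both times, and replicate 2 of siCBP without DHT overlapped sip300. TK1 fell by 0.94 ± 0.196 (adjusted p = 0.00243) and 0.91 ± 0.196 (adjusted p = 0.00256), to 52.0% and 53.3% of siNS.

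RRM2, the S-phase subunit of ribonucleotide reductase, differed more between replicates. At 16 h the values were 9.53, 9.14, 8.31 and 7.94 in siNS, 7.83, 8.45, 7.63 and 7.37 in sip300 and 8.98, 8.48, 8.09 and 8.26 in siCBP. Each replicate of sip300 was below its own siNS partner, though the groups overlapped, and RRM2 fell by 0.91 ± 0.280 (adjusted p = 0.0246), a call that the fit without the replicate block lost (adjusted p = 0.109). Without DHT the siNS arrays measured 9.10, 7.995, 8.58 and 7.75 and the sip300 arrays 7.79, 7.66, 7.75 and 7.39, again lower in 4 of 4 and not called at -0.70 (adjusted p = 0.0864). TYMS, the thymidylate synthase, was not called at -0.54 and -0.59, nor RRM1, the large reductase subunit, at -0.12 and -0.21. For DUT, which removes dUTP, the brightest probe measured 0.08 and -0.04, while its other probes (ILMN_1732688 and ILMN_2374778) fell by 1.09 and 0.90 at 0 h and 0.78 and 0.90 at 16 h. Their siNS and sip300 arrays did not overlap at either time.

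Among the 3 chromatin genes 1 fell without DHT and 2 with DHT. UHRF1, which carries DNA methylation through replication, measured 11.35, 9.72, 10.89 and 10.80 in siNS without DHT and 9.93, 10.28, 10.39 and 9.84 in sip300, where siNS replicate 2 was the lowest of all 8 and no call was made (adjusted p = 0.149). Under hormone it measured 10.93, 10.92, 11.32 and 10.76, 9.81, 10.53, 10.11 and 9.39 and, in siCBP, 10.99, 10.93, 10.996 and 10.47. The siNS and sip300 arrays were then apart, and UHRF1 fell by 1.02 ± 0.271 (adjusted p = 0.00993). CHAF1B, a subunit of the assembly factor that lays histones on new DNA, measured 9.70, 8.97, 9.68 and 9.41 in siNS and 8.71, 8.59, 9.35 and 8.70 in sip300 without DHT. With DHT its values were 9.42, 9.16, 9.55 and 9.17 in siNS, 8.51, 8.96, 8.96 and 8.28 in sip300 and 9.44, 9.22, 9.34 and 9.31 in siCBP, where sip300 overlapped neither group. CHAF1B fell by 0.60 ± 0.168 (adjusted p = 0.0169) and 0.65 ± 0.168 (adjusted p = 0.00884), and neither call was kept without the replicate block (adjusted p = 0.0867 and 0.0525). Its partner CHAF1A was not called at -0.45 and -0.52.

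Of the G1/S switch group CCNE1 and E2F1 were detected, and neither was called in sip300 against siNS. Other G1/S regulators, given further below, were called in both directions. CCNE1, which encodes cyclin E1, measured 8.77, 8.36, 8.72 and 8.75 in siNS without DHT and 9.29, 8.60, 9.01 and 9.43 in sip300. It was higher in each of the 4 replicate numbers with the ranges overlapping, and the difference of 0.43 was not called (adjusted p = 0.114). With DHT the values were 8.43, 8.86, 9.14 and 8.57 and 9.15, 8.99, 8.74 and 9.22, a difference of 0.27. E2F1, the activator of this gene programme, measured 6.79, 7.28, 6.45 and 6.51 in siNS and 6.38, 5.76, 6.56 and 6.47 in sip300 without DHT. Its siNS and sip300 arrays with DHT measured 6.87, 6.35, 6.97 and 6.86 and 5.76, 5.99, 7.15 and 6.69, and both comparisons overlapped. Its differences of -0.46 and -0.37 had SEs of 0.355, the widest of the genes shown array by array.

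**Figure D5:**
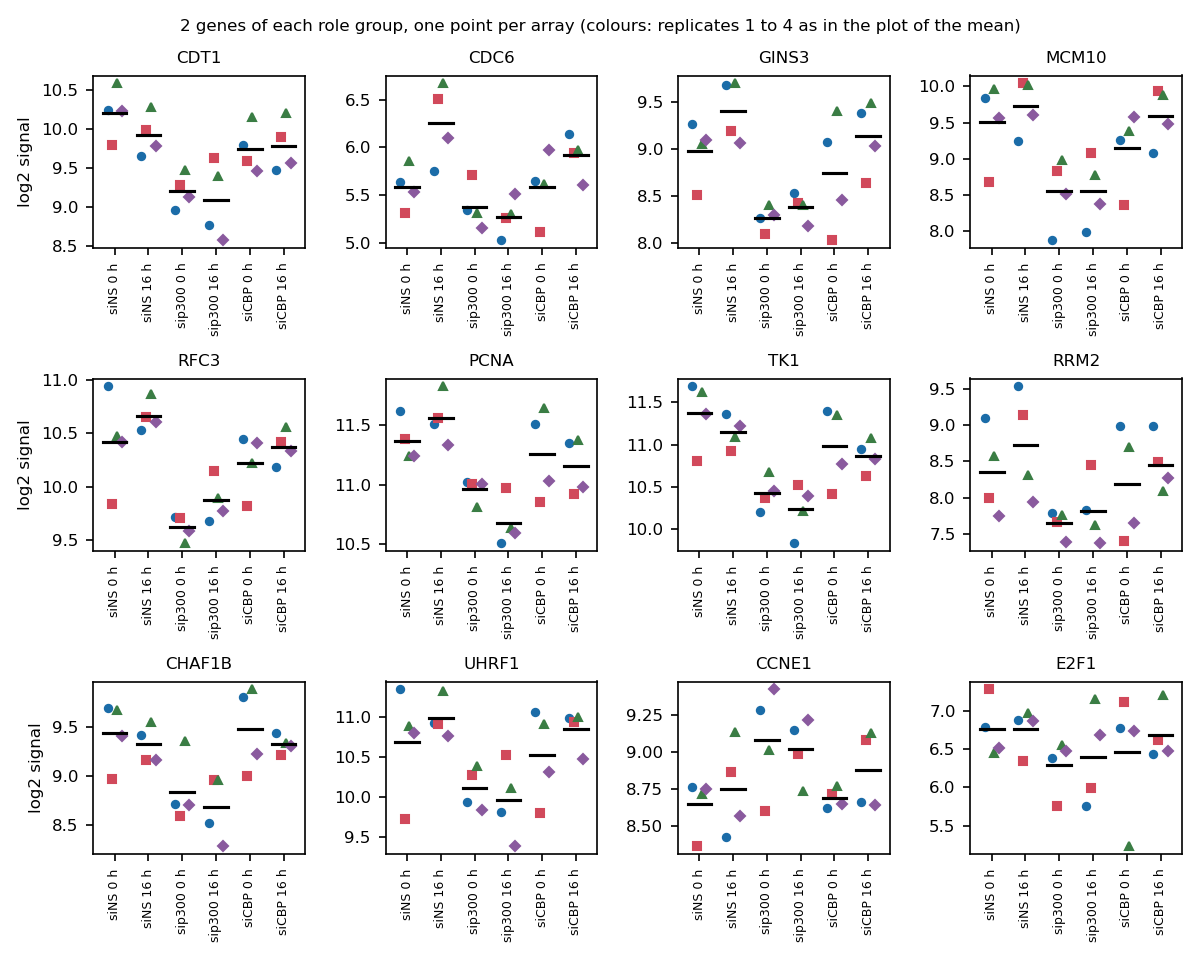
Log2 signal on every array of 2 genes from each role group, by siRNA and hours with DHT, with lines for group means and one colour and marker per replicate number. In CDT1, GINS3, RFC3, PCNA and TK1 the sip300 points lie below all siNS points at both times, and in CCNE1 and E2F1 they do not.

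With the siRNA against CREBBP no replication gene was called. Limma called 0 of 54 probes in siCBP against siNS at either time, where 0.0841% of all probes changed without DHT and 0.108% with DHT. At an unadjusted p under 0.05, 4 and 3 of the 54 were lower (3.86% and 4.22% of all probes), and the other settings tried also called 0. The median difference was -0.15 without DHT and -0.18 with DHT, with 45 and 49 of 54 probes below 0, against 49.2% and 50.3% of all probes. The medians by replicate were -0.15, -0.11, -0.07 and -0.20 without DHT and -0.08, -0.26, -0.20 and -0.26 with it. The median without DHT depended on single arrays. It was -0.06 without the siNS array of replicate 1, -0.31 without that of replicate 2, -0.25 without the siCBP array of replicate 1 and -0.02 without that of replicate 2. Without replicate 2 in all groups the median was -0.16, with 43 of 54 probes below 0 and 0 called. By brightest probe CDT1 measured -0.47 ± 0.169 without DHT (adjusted p = 0.415) and GINS4 -0.67 ± 0.285 with DHT (adjusted p = 0.526). GINS1 was detected on 0 siCBP arrays without DHT and was at least 1.11-fold lower there than in siNS by the same bound as CDC6, not called (adjusted p = 0.628).

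The arms were also compared directly. In sip300 against siCBP 11 of 54 probes fell without DHT (6.27% of all probes fell) and 23 with DHT (7.51% of all), and 0 rose at either time (7.10% and 9.70% of all). The medians were -0.35 and -0.51. By brightest probe 4 genes fell without DHT: RFC4 by 0.65 ± 0.212 (adjusted p = 0.0465), CHAF1B by 0.64 ± 0.168 (adjusted p = 0.0152), RFC3 by 0.60 ± 0.184 (adjusted p = 0.0351) and CDT1 by 0.54 ± 0.169 (adjusted p = 0.0388). None of these 4 passed without the replicate block (adjusted p = 0.0861, 0.0882, 0.0576 and 0.191). Without replicate 2, an omission chosen from these same values, 14 genes fell and the median of the probes was -0.53. These 4 were among them and fell by 0.92, 0.72, 0.77 and 0.62. With DHT 14 genes fell, led by MCM10 (by 1.04 ± 0.289, adjusted p = 0.0171), UHRF1 (by 0.89 ± 0.271, adjusted p = 0.0283) and POLE2 (by 0.85 ± 0.214, adjusted p = 0.00950). GINS3, RFC4, FEN1, CDT1, CHAF1B and TK1 fell by 0.75, 0.72, 0.70, 0.69, 0.65 and 0.63. CDC6, detected on no sip300 array, was at least 1.10-fold lower. Its call (adjusted p = 0.0338) carries the limit given for CDC6 above. Of the 14 genes 3 passed without the replicate block, MCM10, POLE2 and RFC4. GINS1 went the other way, at 0.56 (adjusted p = 0.118, not called).

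This contrast rested more on single arrays and on the pairing than the one against siNS. Without the replicate block it called 2 and 8 probes. Without DHT, leaving out replicates 1 to 4 in turn gave 1, 22, 1 and 3 probes, the siCBP array of replicate 2 alone 19, the other siCBP arrays 4, 4 and 5, and the sip300 arrays of replicates 1, 3 and 4 5, 6 and 6. With DHT, leaving out replicates 1, 3 or 4 gave 3, 4 and 5 probes and leaving out replicate 2 gave 29. Single sip300 arrays of replicates 1, 3 and 4 gave 6, 12 and 10 there, and single siCBP arrays of replicates 1 to 3 gave 13, 13 and 15. These counts, too, stand without the shares of all probes called in the same settings. The siNS and siCBP comparisons use the same sip300 arrays. The siRNAs also left different shares of their targets, 43.9% to 54.3% of EP300 and 29.9% to 31.1% of CREBBP, and how far that difference bears on the comparison was not tested.

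None of these genes passed the same test for a change with androgen. With DHT against without, limma called 0 of 54 probes in siNS (5.36% of all probes changed), 0 in sip300 (1.47%) and 0 in siCBP (4.37%). At an unadjusted p under 0.05, 2, 1 and 1 probes were higher (7.83%, 4.58% and 6.58% of all) and none was lower. The medians of the 54 were 0.04, -0.10 and 0.03. By replicate number the siNS medians were -0.32, 0.52, -0.01 and -0.02, so that replicate 2, low without DHT, was the one that rose. CDC6 in siNS had the lowest adjusted p, with a difference of 0.68 ± 0.202 (adjusted p = 0.0579, higher in 4 of 4). A single probe passed in siNS under 3 of the other settings, which were the authors' values, slide added to the block, and leaving out replicate 1 of siNS with DHT.

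No difference between arms in the DHT response passed this threshold either. Limma called 0 of 54 probes for sip300 against siNS (0.0901% of all probes), for siCBP against siNS (0% of all) and for sip300 against siCBP (0% of all). At an unadjusted p under 0.05 there were 1, 0 and 0 probes (5.68%, 2.95% and 5.06% of all). The single probe was that of CDC6 (adjusted p = 0.647), which no sip300 array detected at either time, so no size is given for its response there. The comparison of sip300 against siNS here is also the test of their difference between the times. More genes were called in sip300 with DHT than without, yet no probe was called for a difference between the times.

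Other genes of the cell cycle, listed apart from the 39, were counted by brightest probe in the same fit, against 8.93% of all probes lower without DHT and 10.4% with DHT. Of 31 measured origin and fork genes 6 fell in sip300 without DHT and 10 with DHT, and 0 rose. GMNN, the inhibitor of CDT1, fell by 0.86 and 1.24, CHTF18, part of an alternative clamp loader, by 0.86 and 1.12, and CDC45, the helicase cofactor, by 0.77 and 1.03 (0.0730 as the adjusted p without DHT in the fit without the replicate block). DSCC1, from the same loader as CHTF18, fell by 0.84 without DHT, and TICRR, a firing factor, by 1.01 with DHT. GMNN was also the one gene of these lists called with DHT in siNS, where it rose by 0.68 (adjusted p = 0.0339, and 0.123 without the replicate block).

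Of 29 measured G1/S regulators 5 fell and 1 rose without DHT, and 11 fell and 3 rose with DHT. CDKN2A, which encodes a CDK4/6 inhibitor, rose by 1.42 and 1.06. E2F2, an E2F activator, fell by 1.06 and 1.14, and FBXO5, which restrains the anaphase-promoting complex, fell by 0.73 and 0.92. Without the replicate block both lost their calls without DHT (adjusted p = 0.0570 and 0.0555). MYC fell by 0.81 without DHT, a call lost without the replicate block (adjusted p = 0.132), and E2F7, a repressor of the family, fell by 1.01 with DHT. Whether MYC was called with DHT, or E2F7 without it, is not shown here. MYC and CDKN2A each had 1 further detected probe. Among 11 other nucleotide genes 1 fell without DHT, PAICS of purine synthesis, by 0.42, a share of the list near that of all probes and a call lost without the replicate block (adjusted p = 0.0808). With DHT PAICS and IMPDH2, of guanine nucleotide synthesis, fell by 0.53 and 0.52, and the kinase CMPK1 rose by 0.32, a call also lost in that fit (adjusted p = 0.125).

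Genes that act after S phase were lower too. Of 25 mitosis genes 9 fell in sip300 without DHT and 15 with DHT, and 0 rose, with medians of -0.48 and -0.58. CENPA, the centromeric histone, fell by 1.08 and 1.01, and PLK1, a mitotic kinase, by 0.82 and 0.76. In siCBP against siNS limma called 0 genes of these 4 lists at either time, with list medians from -0.29 to 0.01. In sip300 against siCBP 1 and 2 of the 25 mitosis genes fell, with medians of -0.23 and -0.27. These counts are near the shares of all probes that fell there, 6.27% without DHT and 7.51% with DHT.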

How the data were processed

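The table deposited by the authors gave an unnormalised mean intensity over beads for 47231 probes and 887 control rows. A detection p-value stands beside each intensity, per the file headers. The authors' deposited processed values are on a log2 scale by their range, and the submitters' processing notes name limma (version not given). They correlated with the values used here at r = 0.998 or more on the same array, with column medians of 5.45 to 5.47 and centring not stated. No data column lacked a sample (0 columns).

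Control rows were left out, and neqc (limma 3.58.1, R 4.3.3, offset 16) corrected background, which it read from the detection p-values, normalised the rest between arrays and took log2. A detection p below 0.05 on 4 or more of the 24 arrays kept 23038 probes, of which 16655 named 1 gene by the platform table, with current symbols, and were tested. The other 6379 named no gene and 4 named several. A common limma fit of 6 group means and a block for the replicate number, with 15 residual degrees of freedom, gave 12 contrasts, 2-sided, with Benjamini-Hochberg adjustment within each. On data simulated with independent noise and the same replicate effects that the fit assumes, the method recovered known changes. Single arrays on which many probes shift together, as in replicate 2 without DHT, were not simulated.

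Replicate numbers were taken to pair the arrays. With group means removed, correlations within a number ran from 0.146 to 0.578 over 60 pairs (median 0.322). Between numbers the median was -0.131 and the highest 0.214, so the ranges overlapped. For each of the 24 arrays the mean correlation with arrays of other groups was highest for its own number. The labels number the samples and say nothing of shared or separate cultures. The pairing therefore rests on the data, and p-values cover the spread among these samples, which may be technical. Each of 2 slides carried 2 arrays of every group. The arrays of a replicate number were spread over both slides. In replicate 2 without DHT, siNS and siCBP lay on slide 2 and sip300 on slide 1. The number of arrays limits the precision.

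The members, the other gene lists and the tests were chosen with earlier results of these data known. In each contrast, members whose brightest probe was called were named, up to 10 by size of change, and the other members are given by role for completeness. Array values are shown for the 2 genes of each role with the lowest p in the test among all 6 groups. From the other lists up to 4 called genes a contrast were named, and EP300, CREBBP and FKBP5 check the treatments. A gene detected on no array of a group is given as a bound from the lowest detected signals. Alternatives were the fit without the block, quantile normalisation, the authors' values, other detection filters, 1 probe per gene, slide, only the groups compared, and leaving out arrays. Promoters came from RefSeq.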

Additional observations from a re-analysis of the deposited data

Results flagged for a closer look

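Of 78 groups of 4 arrays examined, 4 held an array whose gap to the others exceeded Dixon's critical value, a rule that chance alone meets in about 1 group of 20. CCNE1 measured 8.36 in replicate 2 of siNS without DHT, against 8.72 to 8.77 on the other arrays of the group. PCNA measured 10.8 in replicate 3 of sip300 without DHT, against 11.004 to 11.02. CHAF1B measured 9.35 in the same replicate of sip300, against 8.59 to 8.71, which brings its sip300 range into that of siNS. UHRF1 measured 10.5 in replicate 4 of siCBP with DHT, against 10.93 to 10.996. No difference between arms in the DHT response passed its test.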

How the results depend on the processing

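Calls among the 54 probes were lower calls, except for 1 higher call in each of 5 settings. These were DHT in siNS on the authors' values, with slide added to the replicate block and without replicate 1 of siNS with DHT, sip300 against siNS without replicate 2 of sip300 without DHT, and sip300 against siCBP without replicate 4 of siCBP with DHT. No named gene changed direction. The 34 results for named genes gave 746 combinations of a result and a setting. Of these 495 kept their side of the threshold and 251 did not pass. In sip300 against siNS the 21 probes without DHT became 13 in the fit with no replicate block, 11 with 1 probe per gene, and 0 and 1 on slide 1 and slide 2 alone. The 33 with DHT became 21 with 1 probe per gene, and 9 and 0 on the slides alone, and 28 without the replicate block. In sip300 against siCBP the 11 without DHT became 2 without the replicate block, 18 on the authors' values, 4 with 1 probe per gene, 3 with only the groups compared, and 0 and 1 on the slides. The 23 with DHT became 8 without the replicate block, 14 with 1 probe per gene, 13 with only the groups compared, and 2 and 0 on the slides. For DHT in siNS, where 0 were called, the authors' values and the replicate block with slide each gave 1. Using 1 probe per gene lowers a count of probes by construction, and slides alone hold 2 arrays a group, while for the other settings the cause was not tested. The counts here and in the next paragraph stand without the share of all probes called in the same setting.

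Leaving out a replicate number or a single array gave 8 to 36 and 17 to 38 probes for sip300 against siNS without and with DHT, 1 to 22 and 3 to 30 for sip300 against siCBP, and 0 to 1 for DHT in siNS. In every such setting CDT1 and TK1 without DHT, and CDC6, FEN1, GINS3, PCNA and TK1 with DHT, were called in sip300 against siNS. The CDC6 probe passed the detection filter only through siNS and siCBP arrays, so its calls are not independent of that filter. Without the replicate block 4 of the 10 genes called without DHT passed, and 16 of the 21 with DHT. Against siCBP 0 of 4 and 3 of 14 passed. CDC6, GINS1 and GINS4 were not detected on all arrays, which limits what their differences can show.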
